A study of Rattus norvegicus with 15 samples.

Results

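The mRNAs described here are Mt-co1 (ENSRNOG00000034234), Mt-co2 (ENSRNOG00000030371) and Mt-co3 (ENSRNOG00000030700), the mitochondrially encoded subunits of cytochrome c oxidase. They are 3 of the 30560 genes in the count tables and were taken by identifier. All 3 passed the expression filter in every comparison. The symbols were given with the identifiers and are not paired with them in the deposited tables. The members were selected on their levels with hnRNP A2 against IgG, so values in that contrast are a description, without a test. For Mt-co1 and Mt-co3 the values against input were also known when they were chosen, so these too, and the ratio of Mt-co3 to Mt-co1 against input, are given without a test.

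Libraries came from primary oligodendrocytes, the myelin-forming cells of the central nervous system, grown from forebrain cortex of newborn Sprague-Dawley rats (postnatal day 0 to 2) and matured for 3 days. There were 5 groups of 3 libraries, numbered 2, 3 and 4 in the labels. Input RNA and RNA recovered with an antibody to hnRNP A2 were each taken from control cells and from cells given oligomeric amyloid-β (Aβ1–42). IgG immunoprecipitations, the background of the procedure, bear a label of pooled control and amyloid-β material, although amyloid-β alone is marked in the names of their files. The sources used here do not give the dose and time of exposure, the vehicle of the control or the number of animals behind a replicate. The design text calls the replicates biological. Where same-numbered libraries share a preparation, p-values that treat them as independent do not account for it. Markers of oligodendrocytes and of other cell types were not analysed here.

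Cytochrome c oxidase is complex IV of the respiratory chain, which passes electrons from cytochrome c to oxygen and pumps protons. Its catalytic core is encoded in mitochondrial DNA and its other subunits in the nucleus. Mitochondrial genes are transcribed inside the organelle as long precursors that are cut into separate mRNAs, so the members share a template and a promoter but not necessarily their stability. hnRNP A2 is an RNA-binding protein of the nucleus and cytoplasm, known in oligodendrocytes for its part in the transport of myelin mRNA.

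Gene counts summed to between 14773400 and 25751522 per input library, to between 28056346 and 33168494 per hnRNP A2 library, and to 81463, 4096829 and 1895870 in IgG replicates 2, 3 and 4. Between 19.9% and 41.6% of gene counts in input, 6.05% and 8.59% with hnRNP A2, and 7.10% and 16.1% in IgG fell on the 10 most abundant genes. Alignments to several places made up 46.8% to 67.2% of aligned records in input, 13.9% to 28.4% with hnRNP A2 and 25.5% to 75.7% with IgG. These alignments are in a summary row and not in the gene counts, and their part in the members' values was not tested. Levels below are CPM (counts per 1000000 gene counts) after TMM scaling, which sets libraries to a common size from the bulk of their genes. In such bulk samples, fewer cells of a type and less RNA per cell cannot be told apart.

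Mt-co1 encodes the subunit that holds the heme and copper site where oxygen is reduced. Its level in input was 23230, 12182 and 17501 CPM in control replicates 2, 3 and 4, and 14551, 7414 and 12564 CPM in amyloid-β replicates 2, 3 and 4. In the hnRNP A2 libraries it was 12065, 16635 and 20891 CPM in control and 11495, 18630 and 24080 CPM in amyloid-β. The input and hnRNP A2 libraries thus overlapped, except that amyloid-β input replicate 3 lay below every hnRNP A2 library, with replicate 3 lowest in both sets of input and replicate 2 lowest in both sets of hnRNP A2 libraries. In IgG replicates 2, 3 and 4 it was 1016, 1724 and 925 CPM, below all 12 other libraries. By raw counts Mt-co1 ranked 1 or 2 among the genes of each hnRNP A2 library, between 4 and 10 in input, and between 40 and 103 in IgG. Ranks by raw counts are not adjusted for gene length.

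Mt-co2 encodes the subunit whose copper center takes up electrons from cytochrome c. Its input level was 3441, 2048 and 2460 CPM in control replicates 2, 3 and 4 and 1918, 1708 and 2279 CPM in amyloid-β. In the hnRNP A2 libraries it was 737, 1090 and 1034 CPM in control and 893, 1215 and 1365 CPM in amyloid-β. On this TMM scale every hnRNP A2 library was below every input library for this gene. With library sizes alone, amyloid-β hnRNP A2 replicate 4 (1592 CPM) lay above amyloid-β input replicates 2 and 3 (1582 and 1496 CPM). As a share of all records, the mean of Mt-co2 was 0.0397% with hnRNP A2 and 0.0363% in input. In IgG the TMM-scaled level of Mt-co2 was 78.2, 174 and 149 CPM in replicates 2, 3 and 4. The first of these rests on 8 counts, with an exact 95% Poisson interval of 33.8 to 154 CPM, which covers counting error only.

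Mt-co3 encodes a core subunit without a redox center. Its input level was 7258, 3879 and 4811 CPM in control replicates 2, 3 and 4 and 4453, 2623 and 4261 CPM in amyloid-β. In the hnRNP A2 libraries it was 1403, 2829 and 2847 CPM in control and 1486, 3046 and 3947 CPM in amyloid-β. Replicate 2 was the lowest of the hnRNP A2 libraries in both treatments and the highest of the input libraries in both. In IgG it was 147, 237 and 244 CPM, the first from 15 counts (exact 95% Poisson interval 82.1 to 242 CPM).

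**Figure D1:**
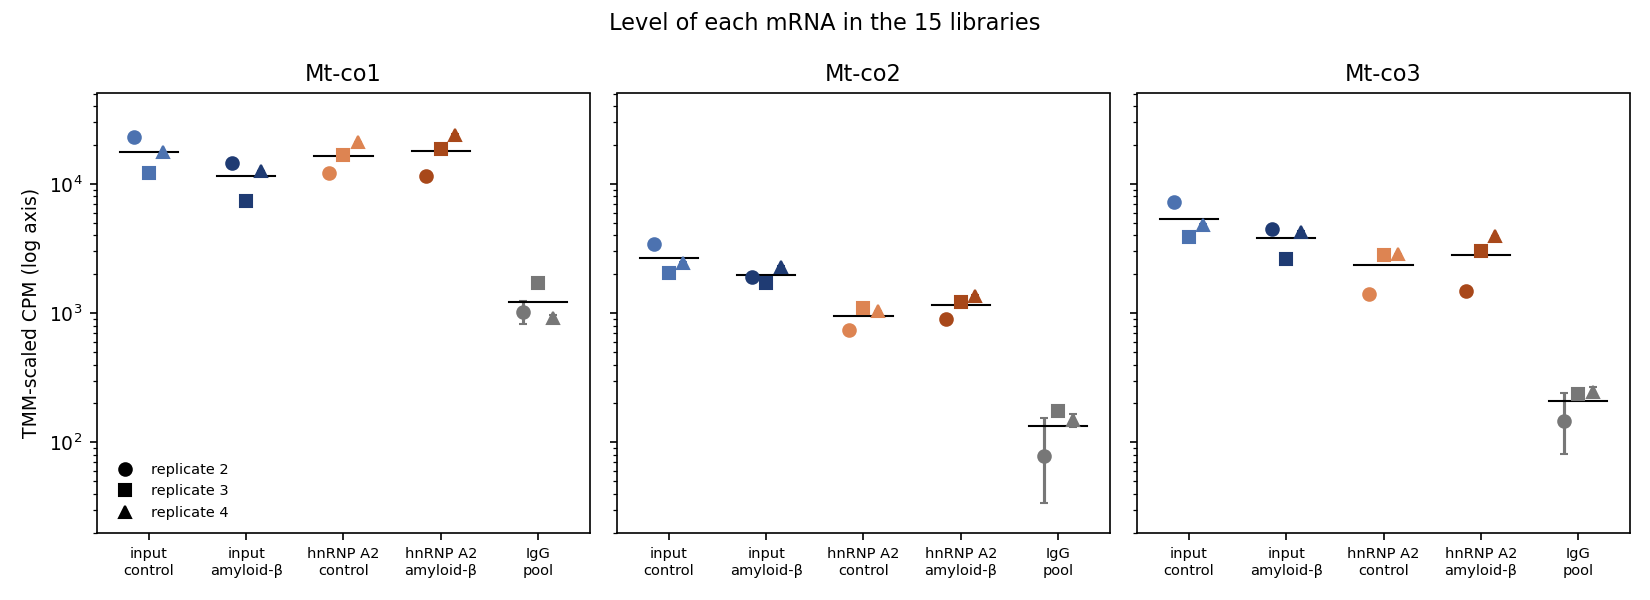
TMM-scaled CPM of Mt-co1, Mt-co2 and Mt-co3 on a log axis in each of the 15 libraries, with symbols for the replicate number, bars for the 95% Poisson interval of the count and a line at each group's mean. The IgG libraries lie lowest for each gene, at 925 to 1724 CPM for Mt-co1, and the hnRNP A2 libraries lie below input without overlap for Mt-co2 alone.

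The order of the groups differed between the members. For Mt-co1 it ran from amyloid-β hnRNP A2 (18068 ± 6311 CPM, SD, n = 3) through control input (17638 ± 5525, SD, n = 3), control hnRNP A2 (16530 ± 4414, SD, n = 3) and amyloid-β input (11510 ± 3684, SD, n = 3) to IgG (1222 ± 437, SD, n = 3). The first 4 of these groups overlapped with their neighbours. For Mt-co2 it ran from control input (2650 ± 715 CPM, SD, n = 3) and amyloid-β input (1968 ± 289, SD, n = 3) to amyloid-β hnRNP A2 (1158 ± 241, SD, n = 3), control hnRNP A2 (954 ± 190, SD, n = 3) and IgG (134 ± 49.6, SD, n = 3). The input groups overlapped with each other, as did the hnRNP A2 groups, while the kinds of library did not on this TMM scale. For Mt-co3 the order was that of Mt-co2, at 5316 ± 1746, 3779 ± 1005, 2826 ± 1245, 2360 ± 829 and 210 ± 54.6 CPM (SD, n = 3 each), and neighbouring groups overlapped except for IgG. Summed, the members took 1.03% to 2.37% of gene counts in input, 1.74% to 3.43% with hnRNP A2 and 0.141% to 0.239% with IgG.

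The comparison with IgG describes how far the members stood above the background of the procedure. Mt-co1 was higher with hnRNP A2 by a log2 fold change of 3.80 (SE 0.42, 6 against 3 libraries), Mt-co3 by 3.55 (SE 0.42) and Mt-co2 by 2.85 (SE 0.31). The median of all 15304 genes tested was 0.07. For the 3 members the hnRNP A2 and IgG libraries did not overlap, which held for 19% of all genes in this direction; nothing is read from that count, since this contrast lies behind the choice of members. Set against the same-numbered IgG library, the 6 hnRNP A2 libraries were 9.65-fold to 26.0-fold higher for Mt-co1. The range was 6.27-fold to 11.4-fold for Mt-co2 and 9.57-fold to 16.1-fold for Mt-co3. For Mt-co1 the smallest differences came from replicate 3 and the largest from replicate 4, whose IgG library had the lowest level of this gene. Each treatment set against the same IgG libraries gave log2 fold changes for Mt-co2 of 2.71 (control) and 2.99 (amyloid-β), for Mt-co1 of 3.73 and 3.86, and for Mt-co3 of 3.42 and 3.68.

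The IgG libraries held less of each member than input did. The log2 fold change of IgG over input was -3.50 (SE 0.44) for Mt-co1, -3.98 (SE 0.40) for Mt-co2 and -4.33 (SE 0.43) for Mt-co3, where the median of all 14205 genes tested was -0.11. The 3 members did not overlap between IgG and input, against 21% of all genes in that direction. This comparison shares the IgG libraries with the one behind the choice and is likewise given without a test. Set against the same-numbered control input, IgG replicate 3 was 7.07-fold lower for Mt-co1, 11.8-fold for Mt-co2 and 16.3-fold for Mt-co3. The differences were larger in replicate 2, at 22.9-fold, 44.0-fold and 49.5-fold, where the IgG counts were 104, 8 and 15.

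Against input, the members stood at different levels in the immunoprecipitation. In control cells Mt-co2 was 2.76-fold lower in the hnRNP A2 libraries (log2 fold change -1.46, SE 0.27, 3 against 3 libraries, edgeR adjusted p = 0.00119) and passed as lower, as did 18.4% of 15303 genes. Mt-co3 stood 2.24-fold lower (log2 fold change -1.16, SE 0.40) and Mt-co1 at -0.09 (SE 0.37), both as a description without a test. On TMM-scaled CPM Mt-co2 and Mt-co3 were below input without overlap, as were 25.2% of all genes. For Mt-co3 nothing is read from this, since its values against input were known beforehand. The hnRNP A2 libraries used here also entered the contrast behind the choice of members.

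In amyloid-β-treated cells Mt-co2 was again lower than input, 1.71-fold (log2 fold change -0.78, SE 0.27, edgeR adjusted p = 0.0363), where edgeR called 20.5% of all genes lower. On TMM-scaled CPM Mt-co2 did not overlap with input, which held for 23.2% of all genes in that direction. Mt-co3 stood at -0.43 (SE 0.39) and Mt-co1 at 0.65 (SE 0.37), again without a test. A share of 18.4% to 20.5% of all genes called lower means that such a call is common in these libraries.

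These values depended on scaling and on single libraries. With library sizes alone in place of TMM, the median of all genes moved to 0.65 in control and 0.48 in amyloid-β. Mt-co2 kept its call in control (-0.82, edgeR adjusted p = 0.0184) and lost it in amyloid-β (-0.29, edgeR adjusted p = 0.382), while Mt-co3 stood at -0.52 in control and 0.05 in amyloid-β, and Mt-co1 at 0.58 and 1.13. Relative to that median Mt-co1 stood at -0.07 in control and 0.65 in amyloid-β, and Mt-co2 at -1.47 and -0.77. With 1 library left out at a time, Mt-co3 in control ran from -1.35 to -0.88. The call of Mt-co2 in amyloid-β was lost without amyloid-β hnRNP A2 replicate 2, 3 or 4, amyloid-β input replicate 2 or 4, or control hnRNP A2 replicate 4, with edgeR adjusted p from 0.0520 to 0.136. Mt-co2 in control kept its call without each of the 12 libraries.

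Within replicate numbers, replicate 2 stood apart. There Mt-co1 was 1.93-fold lower with hnRNP A2 than in input in control and 1.27-fold lower in amyloid-β, while in replicates 3 and 4 it was 1.19-fold to 2.51-fold higher. Mt-co3 was 5.17-fold and 3.00-fold lower in replicate 2, against 1.37-fold and 1.69-fold lower in control replicates 3 and 4. In amyloid-β replicates 3 and 4 it was 1.16-fold higher and 1.08-fold lower. Mt-co2 was lower in 6 of 6 same-numbered pairs, by 4.67-fold in control replicate 2 and by 1.41-fold to 2.38-fold in the other pairs. The share of all genes lower in every such pair was not computed, so how common this is remains unknown. All 3 members thus had their lowest hnRNP A2 value against input in replicate 2, in both treatments.

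**Figure D2:**
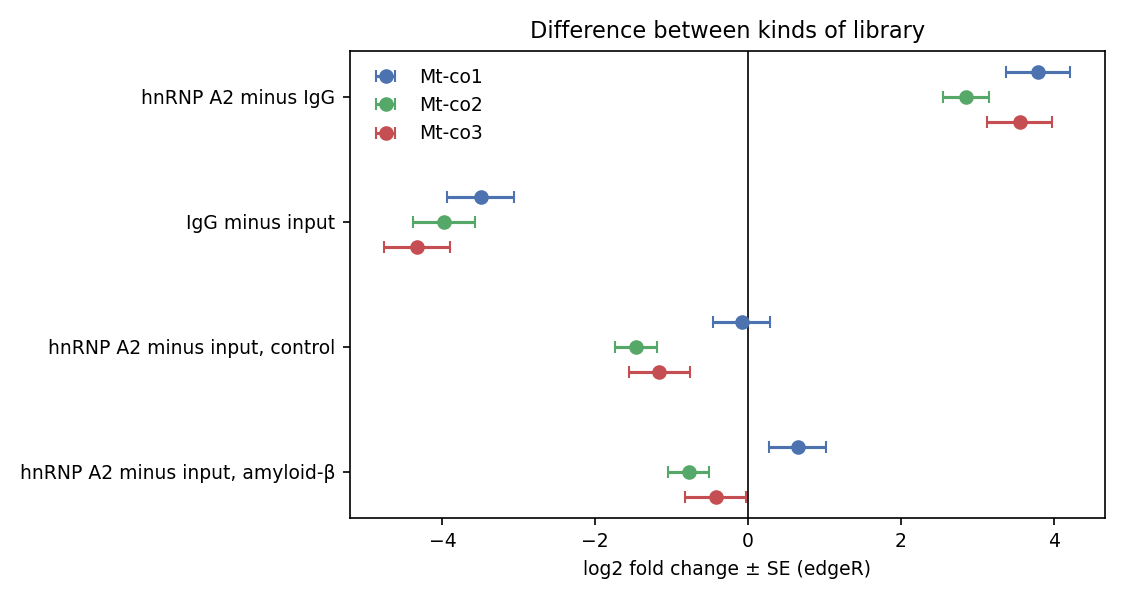
Log2 fold changes with their SE from the edgeR fits over all genes, for hnRNP A2 against IgG, IgG against input, and hnRNP A2 against input in each treatment. All members lie at 2.85 or above over IgG, whereas over input Mt-co1 lies to the right of Mt-co2 and Mt-co3 in both treatments (-0.09 against -1.46 and -1.16 in control).

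The ratio of members within a library needs no scaling between libraries and shows this difference directly. These are ratios of raw counts, not adjusted for gene length, and only their change between libraries is read. Per 100 counts of Mt-co1, the control input libraries held 14.8, 16.8 and 14.1 counts of Mt-co2 in replicates 2, 3 and 4, and the amyloid-β input libraries 13.2, 23.0 and 18.1. The hnRNP A2 libraries held 6.10, 6.55 and 4.95 in control and 7.77, 6.52 and 5.67 in amyloid-β. Every hnRNP A2 library lay below every input library. The share of other gene pairs whose ratio separates these libraries was not computed, for this ratio or the others. For single genes in control, 26.5% were above and 25.2% below input without overlap on TMM-scaled CPM, so such separation may be common. The log2 ratio was 1.40 lower with hnRNP A2, 2.64-fold (difference -1.40, SE 0.15; 2-sided exact permutation test, n = 6 against 6, p = 0.00216, the smallest possible; adjusted over 9 tests p = 0.00974). The denominator, Mt-co1, is a gene whose values against input were known beforehand, so this p-value is not independent support for the difference. The 9 tests of the adjustment include the ratio of Mt-co3 to Mt-co1, for which no p is given.

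Mt-co3 followed the same course relative to Mt-co1. Per 100 counts of Mt-co1 there were 27.5 to 35.4 counts of Mt-co3 in the 6 input libraries (mean 31.7 ± 2.74, SD, n = 6) and 11.6 to 17.0 in the 6 hnRNP A2 libraries (14.7 ± 2.22, SD, n = 6). The log2 ratio was lower with hnRNP A2 by 2.18-fold (difference -1.12, SE 0.11), without overlap. The ratio of Mt-co2 to Mt-co3 overlapped between the kinds of library: 43.1 to 65.1 counts of Mt-co2 per 100 of Mt-co3 in input and 34.6 to 60.1 with hnRNP A2. The log2 difference was -0.28 (SE 0.15, exact permutation test, n = 6 against 6, p = 0.104, adjusted p = 0.312). Its denominator, Mt-co3, was likewise known against input beforehand, which limits this test too. By same-numbered pair this ratio was split. It was lower with hnRNP A2 in replicates 3 and 4 of both treatments, by 1.37-fold to 1.63-fold. In replicate 2 it was higher, by 1.11-fold in control and 1.40-fold in amyloid-β.

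These permutation tests count the 6 libraries of a kind as independent, although their replicate numbers pair them. Paired by treatment and number, both ratios to Mt-co1 were lower with hnRNP A2 in 6 of 6 pairs. How often ratios of other genes do so was not computed. For Mt-co2 to Mt-co1 an exact permutation test over these pairs had p = 0.0312, which no test of 6 pairs can undercut, and 0.141 after adjustment, short of the threshold. With the treatments averaged within each number, the same test of 3 pairs allows no p under 0.25. The size of the difference by pair was 1.70-fold to 3.53-fold for Mt-co2 to Mt-co1 and 1.87-fold to 2.69-fold for Mt-co3 to Mt-co1. Leaving out any of the 12 libraries kept the differences at -1.47 to -1.30 and -1.17 to -1.06 on the log2 scale. The unpaired test of Mt-co2 to Mt-co1 passed each time, with the same limit from its denominator.

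In the IgG libraries the ratios were less precise. Per 100 counts of Mt-co1 there were 7.69, 10.1 and 16.1 counts of Mt-co2 in replicates 2, 3 and 4, between the hnRNP A2 and input values or overlapping with them. For Mt-co3 there were 14.4, 13.8 and 26.4, all below each input library (27.5 to 35.4). Replicates 2 and 3 lay within the range of the hnRNP A2 libraries (11.6 to 17.0), and replicate 4 lay above it, near the lowest input value. A lower share of Mt-co3 relative to Mt-co1 than in input was thus also measured with IgG. The share of ambiguous reads among uniquely aligned ones, 2.45% to 4.60% in input, 1.23% to 1.99% with hnRNP A2 and 1.89% to 14.2% in IgG, differed between kinds of library as well, and its part in the ratios was not tested.

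**Figure D3:**
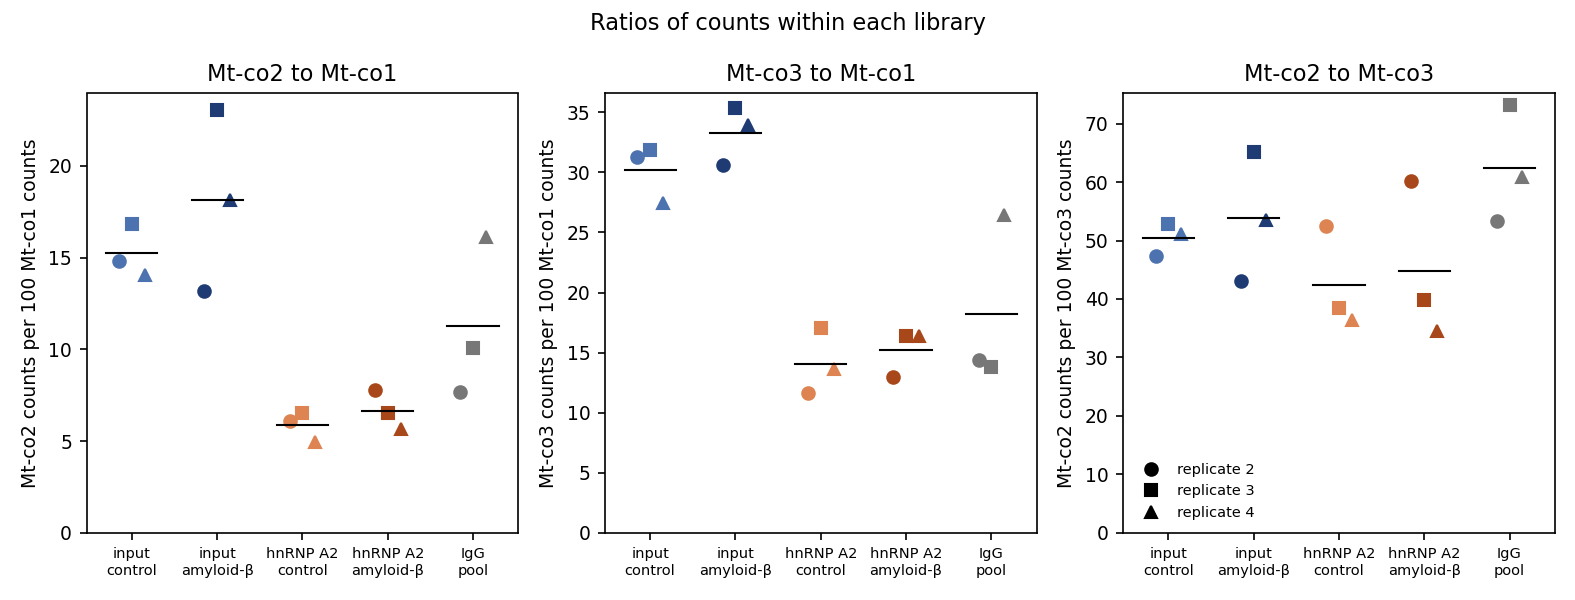
Counts of a member per 100 counts of another within each of the 15 libraries, with symbols for the replicate number and a line at each group's mean. Mt-co2 and Mt-co3 relative to Mt-co1 are lower in all hnRNP A2 libraries (4.95 to 7.77 and 11.6 to 17.0) than in all input libraries (13.2 to 23.0 and 27.5 to 35.4), while Mt-co2 relative to Mt-co3 overlaps.

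Amyloid-β changed none of the members past the threshold in input. The log2 difference from control was -0.62 for Mt-co1 (SE 0.40, 3 against 3 libraries, edgeR adjusted p = 0.954; 95% interval -1.51 to 0.26), -0.43 for Mt-co2 (SE 0.33; interval -1.16 to 0.30) and -0.50 for Mt-co3 (SE 0.37; interval -1.32 to 0.32). In every same-numbered pair all 3 were lower with amyloid-β, which held for 16% of all genes tested, and the groups overlapped. For Mt-co1 the difference by pair was 1.60-fold, 1.64-fold and 1.39-fold in replicates 2, 3 and 4. For Mt-co2 it was 1.79-fold in replicate 2, 1.20-fold in replicate 3 and 1.08-fold in replicate 4. Of the 13793 genes, 0% passed in edgeR and 1.36% had an unadjusted p under 0.05; 0 passed in DESeq2 or voom. With the replicate block edgeR gave Mt-co1 an unadjusted p of 0.0133 and an adjusted p of 0.297. In that fit 0 genes passed, and the share with a low unadjusted p is not given.

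In the unpaired fit of the hnRNP A2 libraries the amyloid-β differences were smaller, and their sign was not stable for Mt-co1 and Mt-co3. They were 0.13 for Mt-co1 (SE 0.34, edgeR adjusted p = 1.000; 95% interval -0.66 to 0.92), 0.28 for Mt-co2 (SE 0.22; interval -0.25 to 0.81) and 0.26 for Mt-co3 (SE 0.41; interval -0.69 to 1.21). Without amyloid-β hnRNP A2 replicate 4 the difference was -0.13 for Mt-co1 and -0.051 for Mt-co3, and without control hnRNP A2 replicate 2 it was -0.050 and -0.0019. Leaving out 1 library kept its same-numbered partner in this unpaired fit, so these values also carry the difference between replicate numbers. Mt-co2 and Mt-co3 were higher with amyloid-β in 3 of 3 same-numbered pairs, as were 13.4% of all genes, and Mt-co1 in 2 of 3. For Mt-co2 the pairs differed by 1.21-fold, 1.11-fold and 1.32-fold in replicates 2, 3 and 4. Of the 15118 genes, 0% passed in edgeR and 0.278% had an unadjusted p under 0.05; 0 passed in DESeq2 or voom. With the replicate block the differences were 0.10 for Mt-co1 (SE 0.076), 0.28 for Mt-co2 (SE 0.074) and 0.22 for Mt-co3 (SE 0.080). The edgeR adjusted p values were then 0.895, 0.361 and 0.740, and the unadjusted p for Mt-co2 was 0.000979. In that fit 1 gene passed, which was not a member. The share of genes with a low unadjusted p under the block is not given.

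The interaction asks whether the enrichment over input differed between treatments. It was 0.73 for Mt-co1 (SE 0.52, edgeR adjusted p = 1.000; 95% interval -0.40 to 1.86), 0.69 for Mt-co2 (SE 0.38; interval -0.13 to 1.51) and 0.74 for Mt-co3 (SE 0.56; interval -0.46 to 1.94). No member passed, and of all 15303 genes 0% did, while 0.817% had an unadjusted p under 0.05; 0 passed in DESeq2 or voom. The intervals reach beyond a log2 difference of 1 for each member, so differences of that size were not excluded. Amyloid-β also changed no ratio between members past the threshold: in 6 exact permutation tests of 3 against 3 libraries, where 0.1 is the smallest p possible, p lay from 0.3 to 0.8.

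**Figure D4:**
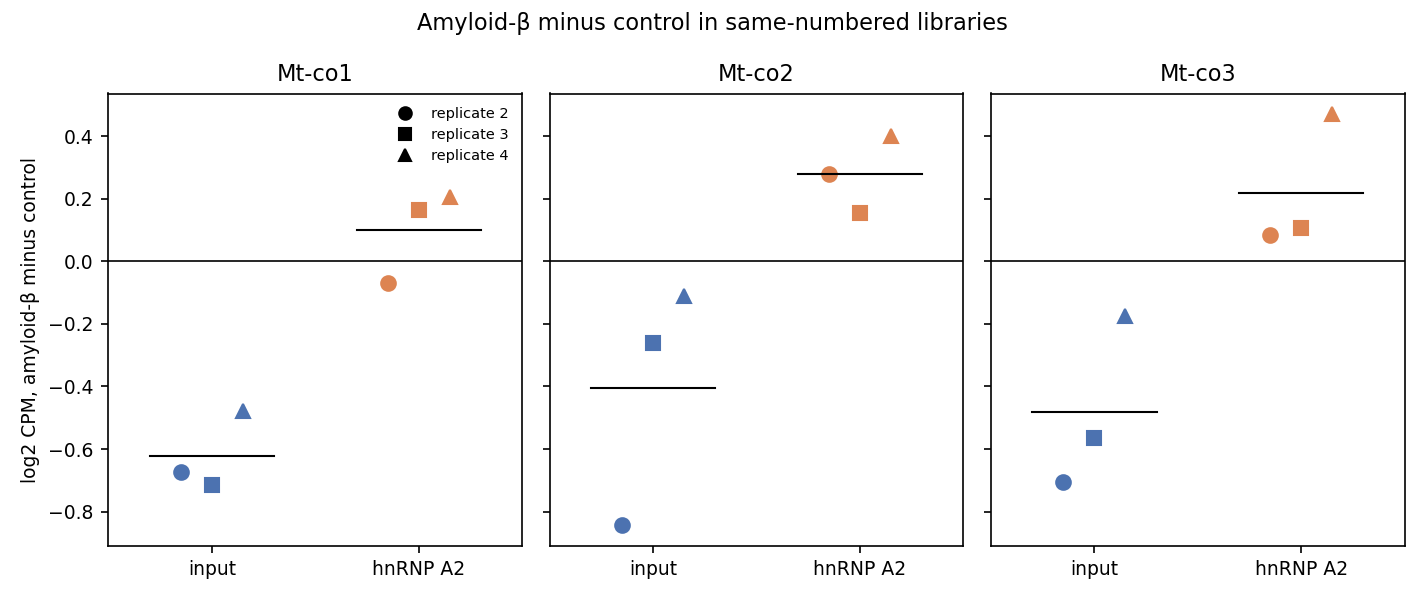
Log2 CPM with amyloid-β minus control for same-numbered libraries, in input and with hnRNP A2, with symbols for the replicate number and a line at the mean of the 3 pairs. All input pairs lie below 0 for each gene, and all hnRNP A2 pairs lie above 0 for Mt-co2 and Mt-co3, but not for Mt-co1 in replicate 2.

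Likeness to other genes was measured as the SD over the 15 libraries of the log2 difference in CPM from a member, a smaller SD meaning a steadier ratio, among 8974 genes of at least 10 CPM on average. Mt-co2 was closest to Mt-co3 of all these genes, with an SD of 0.32. Mt-co3 was closest to ENSRNOG00000031766, with an SD of 0.22, then to Mt-co2. Mt-co1 was closest to ENSRNOG00000023786, with an SD of 0.54, then to Mt-co3 (0.59), and Mt-co2 was in place 7 (0.72). Seen from Mt-co2, Mt-co1 was in place 34. The median gene had an SD of 1.63 from Mt-co1, 1.60 from Mt-co2 and 1.75 from Mt-co3. The IgG libraries, in which all 3 members were low and on which they were selected, enter these SDs, so closeness between members is partly fixed by the selection. Depth and composition differed between and within the kinds of library, and their part in these SDs was not tested. No symbol was paired with ENSRNOG00000031766 or ENSRNOG00000023786.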

How the data were processed

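The authors deposited raw read counts per Ensembl gene identifier, whole numbers with no normalization, in 1 table per library. The submitters' processing notes name STAR 2.7.1, HTSeq, DESeq2 and R 4.2.2. The sources used here do not give build, annotation or strand setting, so overlapping genes and near-identical nuclear copies of mitochondrial genes remain uncertain. The 5 summary rows that name no gene held 65.5% to 91.4% of records and entered neither library sizes nor tests.

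Counts of all genes were fitted with edgeR 4.0.16 in R 4.3.3 (TMM scaling, default expression filter, quasi-likelihood F tests, Benjamini-Hochberg adjustment over all genes tested, threshold 0.05). SEs are the size of the log2 fold change divided by the square root of F. CPM values use TMM factors computed over all 15 libraries. Within-library log2 ratios used a pseudocount of 0.5 counts and 2-sided exact permutation tests, adjusted over 9 tests. Alternatives were DESeq2 1.42.0, limma 3.58.1 voom, other scalings and filters, all libraries in 1 fit, the replicate block, and each library left out. Every voom fit gave each library a quality weight. The edgeR step alone was run on simulated counts of independent libraries. This covered amyloid-β against control in input and with hnRNP A2, and hnRNP A2 against input in control. The ratio tests, the other methods and the IgG comparisons were not simulated, and the outcome is not given here.

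The members, lists and tests were chosen with earlier results of these data known. The reference gene table (GRCr8) held 0 Ensembl identifiers, so the lists of other respiratory chain genes and cell type markers were not analysed here. By the rule for named genes, the 3 members are named, and for each member the 3 genes of at least 10 CPM with the steadiest ratio to it, of which at most 2 identifiers without a symbol are printed.

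To see whether replicate numbers pair libraries, deviations from the group mean over all genes were correlated between libraries with the same number. The correlation was 0.34 to 0.58 between treatments in input, 0.53 to 0.79 between treatments in the hnRNP A2 libraries, and 0.27 to 0.54 (control) and 0.15 to 0.52 (amyloid-β) between hnRNP A2 and input. The numbers were read as pairing these libraries. With IgG the same-number correlation was lower, at 0.12 to 0.23 for control hnRNP A2 and 0.13 to 0.25 for amyloid-β hnRNP A2. For input with IgG it was 0.07 to 0.10 in control and -0.06 to 0.09 in amyloid-β. Differences from the same-numbered IgG library are therefore a description and do not rest on a shown pairing.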

Additional observations from a re-analysis of the deposited data

Results flagged for a closer look

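Mt-co2 and Mt-co3 drew attention because their same-numbered libraries moved in opposite directions under amyloid-β, lower in all 3 input pairs and higher in all 3 hnRNP A2 pairs. Of all genes tested, 16% were lower in every input pair and 13.4% higher in every hnRNP A2 pair. The share of genes with both was not computed, so how common the pattern is remains unknown. The mean log2 difference for Mt-co2 was -0.41 in input and 0.28 with hnRNP A2. For Mt-co3 it was -0.48 in input and 0.22 with hnRNP A2. The edgeR interaction, which tests this difference, did not pass, with an adjusted p of 1.000 for both and unadjusted p of 0.0931 and 0.207. With the replicate block its adjusted p was 0.969 for both. In the unpaired edgeR fit the difference of Mt-co3 with hnRNP A2 was -0.051 without amyloid-β hnRNP A2 replicate 4. Without control hnRNP A2 replicate 2 it was -0.0019.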

How the results depend on the processing

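Over the alternatives that kept all libraries, the differences between hnRNP A2 and IgG kept their direction, and the treatment and interaction results kept direction and stayed unpassed. Against input, library sizes alone gave Mt-co1 0.58 (reversed) in control and 1.13 in amyloid-β, Mt-co2 -0.29 in amyloid-β (no longer passing), Mt-co3 -0.52 in control, and Mt-co3 0.053 in amyloid-β (reversed). The voom fit with quality weights turned Mt-co1 in control to 0.10. Mt-co2 in amyloid-β also lost its call with all 15 libraries in 1 fit (-0.77, adjusted p = 0.0584) and without an expression filter (-0.75, adjusted p = 0.0816). Library sizes alone moved IgG against input to -3.00, -3.51 and -3.86 for Mt-co1, Mt-co2 and Mt-co3. The median of all genes in that comparison moved from -0.11 to 0.33. The cause of these changes was not tested. The replicate block in edgeR changed no call given for a member. The paired exact test of the ratios to Mt-co1, and that with treatments averaged within number, kept the differences of -1.40 and -1.12. For Mt-co2 neither of these exact tests passed (adjusted p = 0.141 and 0.643). With so few pairs these exact tests allow no smaller unadjusted p.

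With each library left out, Mt-co3 against input ran from -1.35 to -0.88 in control and Mt-co2 from -0.90 to -0.63 in amyloid-β. Mt-co1 against input in control ran from -0.30 to 0.15. The unpaired amyloid-β difference with hnRNP A2 ran from -0.13 to 0.37 for Mt-co1 and from -0.051 to 0.56 for Mt-co3. The amyloid-β difference in the log2 ratio of Mt-co2 to Mt-co3 ran from -0.17 to 0.23 with hnRNP A2 and from -0.070 to 0.23 in input, and that of Mt-co3 to Mt-co1 with hnRNP A2 from -0.0088 to 0.27. IgG replicate 2, with 8 to 104 counts for a member, limits the precision of the IgG values.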
